A study of Mus musculus with 12 samples.

Results

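Perp and the components of the desmosome were examined in murine embryonic fibroblasts (MEFs) with and without Pak1, a serine/threonine kinase that acts downstream of Rac and Cdc42. The members were Perp, Dsp, Jup, Pkp1, Pkp2, Pkp4, Dsg2 and Dsc2, and a member was measured where a probe set of the array carried its symbol and no other. By this rule 7 of the 8 genes were measured, each by 1 probe set, of 16755 probe sets in all, of which 14996 carried 1 symbol. Dsp was not analysed here. The genes were selected on measured values, with the difference between the genotypes already known in untreated and in irradiated cells, so these differences are given for the members as a description with no test. Other gene lists were also drawn up with earlier results of these data known. Genes were named from them partly by the size of their difference between the genotypes. Their p-values for the genotype comparisons are therefore descriptive and give no independent support. The changes on irradiation were tested. For the p53 targets these too are descriptive, because the study had named many of them as responsive to irradiation from these same arrays.

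There were 4 groups of 3 arrays each: WT, Pak1 KO, irradiated WT (WT-IR) and irradiated Pak1 KO (KO-IR). All cells came from E13.5 embryos on the C57Bl6J background and had been immortalized with SV40 T antigen, a viral protein that binds p53, so every group carried it, controls included. The KO cells came from embryos in which Pak1 was deleted in the whole body, and irradiation was with gamma rays from a caesium source, with the total dose and the time to harvest not given in the sources used here. The number of embryos or immortalized lines behind each genotype is likewise not given, so that a difference between lines and a difference between genotypes cannot be told apart, and p-values measure only the spread between these arrays. Fibroblast markers were mixed between the genotypes: of 11 measured, Thy1 was called higher in KO (log2 difference 1.29), Pdgfra (-2.33) and Col3a1 (-1.14) were called lower, and the mean level of the list ran from 0.07 to 0.14 in the WT arrays and from -0.10 to -0.04 in the KO arrays.

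Desmosomes are adhesive junctions that anchor intermediate filaments at the plasma membrane and are best known in epidermis and heart muscle, tissues under mechanical load. Desmosomal cadherins (desmogleins and desmocollins) bind across the gap between cells. Inside the cell they hold plakoglobin (Jup) and plakophilins, armadillo proteins that are joined by desmoplakin (Dsp) to the filaments. Perp is a membrane protein with 4 passes, first described as a p53 target in apoptosis and later found at desmosomes of stratified epithelia, where its own gene is driven by p63. Fibroblasts generally lack desmosomes, while cadherin 11 and N-cadherin junctions are typical of them.

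Promoter sequences are shown for the contrast between Jup, the member with a sequence in the reference table whose level differed most between the genotypes, and Pkp4, an armadillo member that differed little. They are the 250 bases before the annotated start on the coding strand, from RefSeq on GRCm38.p6. Sequences were taken by symbol for 3 of the 8 members (Jup, Pkp4 and Dsp), and Dsg2 and Dsc2 were left out of this step. Capitals mark motifs searched on both strands. These were CACCTG, an E-box bound by Snail and Zeb factors, then the GC box with the letters GGGCGG, then the box named for its letters CCAAT, and the AP-1 site, for which TGANTCA was searched.
Jup, chr11:100397791-100398040, minus strand: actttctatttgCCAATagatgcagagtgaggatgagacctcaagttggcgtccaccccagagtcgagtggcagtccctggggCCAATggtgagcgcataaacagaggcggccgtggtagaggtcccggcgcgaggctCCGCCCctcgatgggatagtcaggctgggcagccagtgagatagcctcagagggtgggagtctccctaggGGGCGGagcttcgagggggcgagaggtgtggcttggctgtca
Pkp4, chr2:59160600-59160849, plus strand: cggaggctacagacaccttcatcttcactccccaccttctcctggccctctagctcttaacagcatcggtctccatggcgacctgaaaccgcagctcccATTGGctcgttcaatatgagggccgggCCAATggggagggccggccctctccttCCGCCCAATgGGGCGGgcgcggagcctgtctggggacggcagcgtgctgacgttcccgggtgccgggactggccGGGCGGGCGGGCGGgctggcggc
Pkp4, second start, chr2:59161619-59161868, plus strand: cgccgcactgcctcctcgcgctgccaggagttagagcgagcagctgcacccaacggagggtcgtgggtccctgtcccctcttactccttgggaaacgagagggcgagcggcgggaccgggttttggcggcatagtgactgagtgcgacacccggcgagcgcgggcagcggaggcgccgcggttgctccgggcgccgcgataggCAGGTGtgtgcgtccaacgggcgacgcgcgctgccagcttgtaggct
The Jup sequence (GC 62%) held 2 GC boxes and 2 CCAAT boxes, the first Pkp4 sequence (68.4%) held 5 GC boxes and 3 CCAAT boxes, which overlap in part, and the second Pkp4 sequence (70%) held 1 E-box. Among 32851 promoter sequences of the same length, 17.2% held the E-box, 32.7% the GC box, 33.8% the CCAAT box and 6.75% the AP-1 site. A match is a description of the letters and not of a bound site.

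Values are log2 levels that the authors centred on each probe set's median over the 12 arrays, so a value of 1 lies 2-fold above that median and the levels of different genes cannot be ranked against each other. For a gene whose WT and KO arrays fall apart, the median lies midway between the nearest arrays of the genotypes, which makes the values nearly mirror each other about 0. Since the absolute signal is not part of these values, whether a gene that stayed flat was detected at all cannot be told.

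Perp was far higher in the Pak1-KO MEFs. Its level was -1.72, -1.56 and -1.44 in the 3 WT arrays and 1.44, 1.46 and 1.65 in the 3 KO arrays. In the irradiated cells it was -1.58, -1.62 and -1.66 in WT-IR and 2.01, 1.71 and 1.80 in KO-IR. The WT and WT-IR arrays overlapped, every KO array lay far above them, and every KO-IR array lay above every KO array. The log2 difference was 3.09 (SE 0.09, 8.50-fold) for KO vs WT and 3.46 (SE 0.09, 11.03-fold) for KO-IR vs WT-IR.

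Jup encodes plakoglobin, the armadillo protein shared by desmosomes and adherens junctions. Its level was -1.23, -1.38 and -1.29 in WT and 1.20, 1.20 and 1.26 in KO. In the irradiated cells it was -1.35, -1.20 and -1.21 in WT-IR and 1.39, 1.43 and 1.31 in KO-IR. The order of the groups was the same as for Perp at the upper end, with KO-IR above KO and no overlap, and WT and WT-IR overlapped. The log2 difference was 2.52 (SE 0.05, 5.73-fold) for KO vs WT and 2.63 (SE 0.05, 6.17-fold) for KO-IR vs WT-IR.

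Pkp1 encodes plakophilin 1, the plakophilin of the upper epidermis. Its level was -0.77, -0.83 and -0.77 in WT and 0.87, 0.96 and 0.77 in KO. In the irradiated cells it was -0.999, -0.84 and -0.95 in WT-IR and 0.84, 0.86 and 0.77 in KO-IR. The KO and KO-IR arrays overlapped, while the WT-IR arrays lay just below the WT arrays. The log2 difference was 1.66 (SE 0.06, 3.16-fold) for KO vs WT and 1.75 (SE 0.06, 3.37-fold) for KO-IR vs WT-IR.

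Pkp2 encodes plakophilin 2, the plakophilin of heart muscle and simple epithelia. Its level was -0.51, -0.57 and -0.53 in WT and 0.66, 0.73 and 0.73 in KO. In the irradiated cells it was -0.84, -0.90 and -0.82 in WT-IR and 0.51, 0.60 and 0.59 in KO-IR. No group overlapped another, and in both genotypes the irradiated arrays were the lower ones. The log2 difference was 1.25 (SE 0.04, 2.37-fold) for KO vs WT and 1.42 (SE 0.04, 2.67-fold) for KO-IR vs WT-IR.

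**Figure D1:**
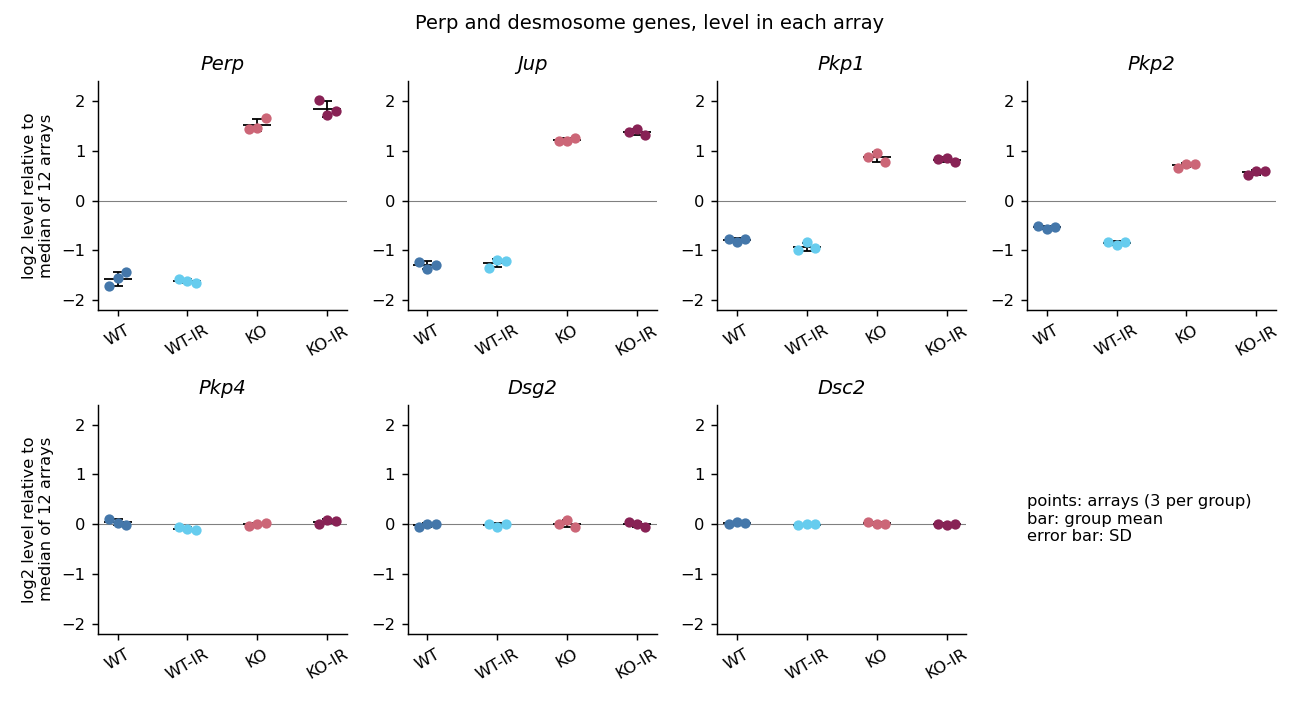
Log2 level of each measured member, relative to its median over the 12 arrays, in WT, WT-IR, KO and KO-IR. Points are arrays, horizontal bars are group means and error bars are SD over 3 arrays. Perp, Jup, Pkp1 and Pkp2 split by genotype with no overlap, and Pkp4, Dsg2 and Dsc2 stayed between -0.11 and 0.11.

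Pkp4, Dsg2 and Dsc2 differed little. Pkp4 encodes p0071, an armadillo protein found at adherens junctions and the midbody as well as at desmosomes, and its 12 values ran from -0.11 to 0.11. The log2 difference was -0.04 for KO vs WT (95% interval -0.13 to 0.05) and 0.14 for KO-IR vs WT-IR (0.05 to 0.23), where the KO-IR arrays lay above the WT-IR arrays with no overlap. Dsg2 and Dsc2 encode the desmoglein and desmocollin of simple epithelia and heart. The values of Dsg2 ran from -0.05 to 0.08 and those of Dsc2 from -0.01 to 0.05. The 95% intervals for KO vs WT were -0.07 to 0.12 for Dsg2 and -0.08 to 0.07 for Dsc2, and for KO-IR vs WT-IR they were -0.09 to 0.10 and -0.06 to 0.08. These intervals bound a change in the centred value only.

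A probe set was called where its adjusted p was under 0.05 and its fold change at least 2. For KO vs WT 4 of the 7 measured members were called, all higher in KO, where 4.42% of all probe sets were called in either direction and 2.44% were called higher. For KO-IR vs WT-IR the same 4 genes were called, all higher, beside 5.06% of all probe sets and 2.96% called higher. By the adjusted p alone 4 of 7 members passed for KO vs WT and 5 of 7, with Pkp4, for KO-IR vs WT-IR. Pkp4 no longer passed when any 1 of 4 arrays was left out (WT-IR replicate 2 or 3, KO-IR replicate 2 or 3), which left 4 of 7. The shares of all probe sets were 43.2% and 44.6%. Since the members were chosen with these contrasts known, nothing is read from these counts. For KO vs WT the smallest fold among the 4 called members was that of Pkp2 (2.37, higher) and the largest among the other 3 that of Pkp4 (1.03, lower), and for KO-IR vs WT-IR they were those of Pkp2 (2.67) and Pkp4 (1.10), both higher.

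Among the members Pkp4, Dsg2 and Dsc2 differed little. The remaining desmosome genes lay outside the choice of members, so nothing is read from a contrast with them. Of 11 listed 8 were measured, and 1 was called for KO vs WT and 0 in the direction of Perp and Jup. That gene was Cdsn, which encodes corneodesmosin, an adhesive protein of the desmosomes of the cornified layer: it was lower in KO by limma, with a log2 difference of -1.22 (SE 0.09, adjusted p = 3.58e-07), and lower in KO-IR than in WT-IR (-1.14, adjusted p = 5.81e-07). Ppl, encoding the plakin periplakin, was 0.22 higher in KO (adjusted p = 0.000589) and 0.22 higher in KO-IR (adjusted p = 0.000615), below the fold threshold. Evpl, encoding its partner envoplakin, differed by -0.10 and 0.10 and Pkp3, the third classical plakophilin, by -0.05 and 0.03, with no adjusted p under the threshold. The median log2 difference was -0.04 over the 8 genes and -0.02 over all probe sets for KO vs WT.

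The desmosomal cadherins were flat as a family. Dsg2, Dsg3, Dsg4, Dsc1, Dsc2 and Dsc3 were the 6 measured, and their log2 differences ran from -0.04 to 0.03 for KO vs WT and from -0.01 to 0.02 for KO-IR vs WT-IR. Among those outside the members (Dsg3, Dsg4, Dsc1 and Dsc3) 0 passed the test by limma in either comparison, by the adjusted or the unadjusted p (0 of the 6 under 0.05). All their values over the 12 arrays lay between -0.05 and 0.08. The armadillo members and Perp spanned -0.04 to 3.09 for KO vs WT, but they were chosen with these values known. Pkp3, an armadillo gene outside the members, differed by -0.05, so nothing is read from a contrast with the cadherins. With each array left out in turn, the KO vs WT difference ran from -0.01 to 0.06 for Dsg2 and from -0.02 to 0.01 for Dsc2.

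**Figure D2:**
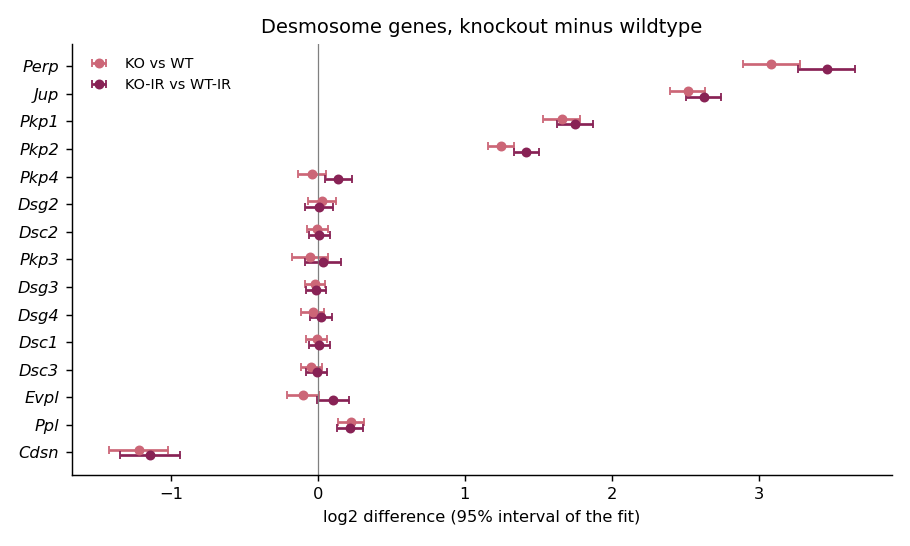
Log2 difference (x axis) of the 7 measured members and the 8 other measured desmosome genes between KO and WT, without irradiation (KO vs WT) and with it (KO-IR vs WT-IR). Points are the fitted differences and bars their 95% intervals. Perp, Jup, Pkp1 and Pkp2 lie above 1, Cdsn lies below -1, and the 6 cadherins lie at 0.

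The filaments and junctions that desmosomes work with were measured from lists of their genes. In every list, counts called for KO vs WT stand beside 4.42% of all probe sets. Of 10 intermediate filament genes 2 were called for KO vs WT, both higher: Krt19, a keratin of simple epithelia, by 2.76 (adjusted p = 2.81e-11) and Nes, encoding nestin, by 1.78 (adjusted p = 1.13e-07). Des, encoding desmin, was 0.43 higher (adjusted p = 9.45e-05). Vim, Krt18, Krt5 and Krt14 differed by 0.05, 0.06, -0.13 and -0.10, none passing the test. The median of the list was 0.01. Krt19 was the 1 keratin called.

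Of 15 adherens junction genes 1 was called, Cdh11, encoding the cadherin of mesenchymal cells, which was 3.59 higher in KO (adjusted p = 4.98e-13) and 3.404 higher in KO-IR (adjusted p = 7.69e-13). Vcl, encoding vinculin, was 0.38 higher (adjusted p = 3.9e-06), Nectin3 0.37 (adjusted p = 0.00329) and Cdh2, encoding N-cadherin, 0.18 (adjusted p = 0.00398), below the fold threshold. Ctnnb1, encoding beta-catenin and the closest relative of Jup, differed by 0.17 (adjusted p = 0.082), and Cdh1, encoding E-cadherin, by -0.05. Of 14 tight and gap junction genes 2 were called, both higher: F11r, encoding the adhesion molecule JAM-A, by 2.44 (adjusted p = 4.62e-12) and Gjb2, encoding connexin 26, by 1.26 (adjusted p = 9.25e-06). Cldn1 was 1.00 higher (adjusted p = 1.93e-07), just under 2-fold, and Gja1, encoding connexin 43, was 0.50 lower (log2 difference -0.50, adjusted p = 0.000134).

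Of 6 hemidesmosome genes 2 were called, both higher: Itga6, the integrin chain of that junction, by 3.15 (adjusted p = 3.14e-11) and Dst, encoding dystonin, by 1.09 (adjusted p = 1.75e-09). For KO-IR vs WT-IR Itga6 was called (3.31) and Dst, at 0.89, was not. Itgb4, the partner chain of Itga6 in hemidesmosomes, differed by -0.04 and Col17a1 by -0.12, neither passing the test. The medians of the adherens, tight and gap junction and hemidesmosome lists were 0.04, -0.05 and 0.05 for KO vs WT, against 1.25 over the 7 measured members, whose choice fixed that value.

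Perp belongs to the family of PMP22, EMP and claudin-like membrane proteins. Of 6 measured relatives 1 was called, Tmem47, which was 1.46 higher in KO (adjusted p = 1.71e-08) and 1.49 higher in KO-IR (adjusted p = 1.28e-08). Emp3 was lower by limma (-0.59, adjusted p = 2.61e-06) and Emp1 was 0.23 higher (adjusted p = 0.012). Pmp22 (0.20), Emp2 (-0.07) and Lim2 (0.03) did not pass for KO vs WT.

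**Figure D3:**
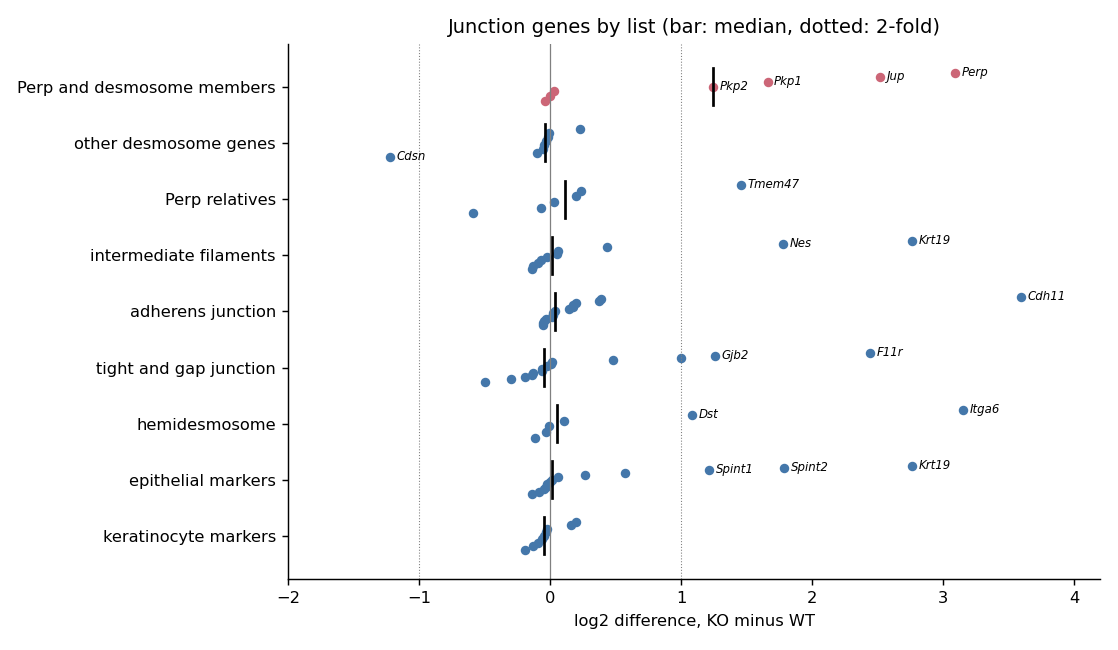
Log2 difference of each measured gene, KO minus WT (x axis), by list. Points are genes, vertical bars are list medians, dotted lines mark a 2-fold change and genes beyond it are named. The members with a large difference are Perp, Jup, Pkp1 and Pkp2, and each other junction list has its median near 0 with at most 2 genes beyond 2-fold.

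Markers of the epithelia in which desmosomes are common were set beside the members. Of 13 epithelial markers 3 were called higher in KO: Krt19, and the membrane inhibitors of serine proteases Spint2 (by 1.79) and Spint1 (by 1.21). Epcam was 0.26 higher (adjusted p = 0.000426) and Esrp2 was 0.57 higher (adjusted p = 2.71e-06), while Cdh1, Cldn7 and Rab25 differed by -0.05 to -0.03. The mean level of the list ran from -0.23 to -0.22 in WT, 0.21 to 0.31 in KO, -0.31 to -0.25 in WT-IR and 0.24 to 0.32 in KO-IR, with no overlap between the genotypes, while the median log2 difference of the 13 for KO vs WT was 0.01 and 8 of the 13 did not pass the test. Of 9 keratinocyte markers 0 were called (2 at an unadjusted p under 0.05), and Trp63, encoding the p53 relative p63 that drives Perp in epidermis, was lower by 0.19 (log2 difference -0.19, adjusted p = 0.00124). The list's mean level ran from 0.01 to 0.05 in WT and from -0.08 to 0.05 in KO. Of 9 mesothelial markers 3 were called, with Krt19 and Msln (1.10) higher and Bnc1 (-1.51) lower. Of 9 endothelial and 5 cardiac muscle markers 0 were called. The endothelial marker Kdr passed limma's adjusted p below the fold threshold (0.17 higher, adjusted p = 0.000911). The cardiac marker Nkx2-5 had an unadjusted p under 0.05 and did not pass (-0.27, adjusted p = 0.068). Of 5 neural and Schwann cell markers 2 were called (Erbb3 1.76, Sox2 -3.62) and of 6 macrophage markers 1 (Csf1r -2.26). Whether a different mix of cells played a part in the levels of the members was not tested, and in bulk RNA a change in the share of a cell type and a change in RNA per cell cannot be told apart.

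Transcription factors of the epithelial and mesenchymal states were mixed. Of 15 measured 1 was called, Snai1, a repressor of junction genes, which was lower in KO (-1.32, adjusted p = 3.14e-06) and lower by less than the fold threshold in KO-IR (-0.87, adjusted p = 9.91e-05). Zeb1, a repressor of the same kind, was lower (-0.64, adjusted p = 5.21e-06). Twist1 (0.71, adjusted p = 1.32e-06) and Snai2 (0.42, adjusted p = 5.38e-05), both linked to the mesenchymal state, were higher, as was the epithelial factor Klf5 (0.79, adjusted p = 2.85e-07).

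On irradiation of the WT cells 1 member passed the adjusted p, and it lay under the fold threshold. Pkp2 fell by limma, with a log2 difference of -0.31 (SE 0.04, 1.24-fold, adjusted p = 0.00306), and all 3 WT-IR arrays were below all 3 WT arrays. The adjusted p of Pkp2 no longer passed with the t-test of the study's methods (0.073) and passed in the other 18 settings. It lay between 0.00275 and 0.073 over all 19. Pkp1 (-0.14, adjusted p = 0.223), Pkp4 (-0.13, adjusted p = 0.145) and Dsc2 (-0.03, adjusted p = 0.716) did not pass. Dsg2 differed by less than 0.01 (adjusted p = 0.994), and the median over all probe sets was -0.03. Perp differed by -0.05 (95% interval -0.25 to 0.14, adjusted p = 0.8) and Jup by 0.05 (-0.07 to 0.17, adjusted p = 0.695). With the fold threshold 0 of the 7 members were called (3 at an unadjusted p under 0.05), beside 0.00597% of all probe sets, and by the adjusted p alone 1 of 7 passed beside 2.48% of all probe sets.

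In the KO cells Perp differed on irradiation by 0.32 (SE 0.09, 95% interval 0.13 to 0.52, 1.25-fold) and missed the threshold by limma (adjusted p = 0.0531). It passed in 5 of the 19 other settings, among them without KO replicate 3 (0.39, adjusted p = 0.0343), and after quantile normalization of the arrays the difference was 0.01 (adjusted p = 0.97). With the arrays centred on their medians instead, it was 0.33 (adjusted p = 0.0579). Jup differed by 0.15 (SE 0.05, adjusted p = 0.133) and by -0.04 after quantile normalization. Pkp2 differed by -0.14 (SE 0.04, adjusted p = 0.0661), with all KO-IR arrays below all KO arrays, and passed after quantile normalization (-0.18, adjusted p = 0.00926). Pkp1 (-0.05), Pkp4 (0.05), Dsg2 (-0.02) and Dsc2 (-0.01) did not pass. Of the 7 members 0 were called by either rule (3 at an unadjusted p under 0.05), beside 0.143% of all probe sets with the fold threshold and 6.3% by the adjusted p alone.

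The interaction asked whether the change on irradiation differed between the genotypes, and is the difference KO-IR minus KO less the difference WT-IR minus WT. It was 0.38 for Perp (95% interval 0.10 to 0.65, adjusted p = 0.255), 0.18 for Pkp4 (0.05 to 0.31, adjusted p = 0.256), 0.17 for Pkp2 (0.05 to 0.30, adjusted p = 0.239), 0.11 for Jup (-0.06 to 0.28, adjusted p = 0.675) and 0.09 for Pkp1 (-0.08 to 0.27, adjusted p = 0.729). Of the 7 members 0 were called or passed the adjusted p (3 at an unadjusted p under 0.05), beside 0.149% and 1.37% of all probe sets. After quantile normalization the interaction was 0.08 for Perp, 0.16 for Pkp4 and 0.06 for Pkp2, and it turned sign for Jup (-0.13) and Pkp1 (-0.03), with 0 members passing. A fall of Pkp2 that passed in WT and not in KO cells was therefore not shown to differ between them.

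**Figure D4:**
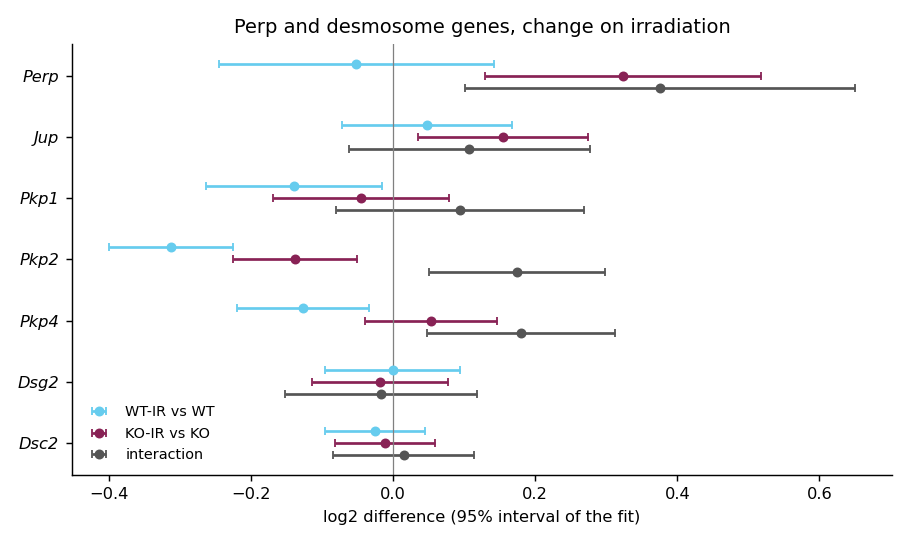
Log2 difference of the 7 measured members (x axis) on irradiation in WT cells (WT-IR vs WT), in KO cells (KO-IR vs KO) and for the interaction. Points are the fitted differences and bars their 95% intervals. Pkp2 in WT-IR vs WT, at -0.31, passed the adjusted p, and Perp in KO-IR vs KO, at 0.32, lay just outside it.

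Of the 8 other measured desmosome genes 0 passed limma's adjusted p on irradiation in either genotype or for the interaction, and 1 had an unadjusted p under 0.05 in each of these 3 contrasts. Their log2 differences ran from -0.13 to 0.03 in WT-IR vs WT and from -0.05 to 0.12 in KO-IR vs KO. Krt19 fell in WT-IR (-0.41, adjusted p = 0.0101) and Dst rose there (0.21, adjusted p = 0.0283), and Emp1, a relative of Perp, fell (-0.32, adjusted p = 0.0262). In KO-IR vs KO, F11r (0.20, adjusted p = 0.0283) and Nectin1, encoding an adhesion molecule of adherens junctions (0.26, adjusted p = 0.00693), rose by limma, and for F11r the sign turned after quantile normalization. These were the genes of the Perp-relative, filament and junction lists that passed on irradiation.

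Perp is also known as a p53 target, so it was set beside a list of other p53 family and target genes, 21 of 24 measured. For KO vs WT 7 of the 21 were called, all higher, beside 4.42% of all probe sets. By the adjusted p alone 17 passed, 14 higher and 3 lower (Sesn1, Aen and Ddit4), beside 43.2% of all probe sets. For KO-IR vs WT-IR 14 were called, all higher, beside 5.06% of all probe sets. Cdkn1a, encoding the cell cycle inhibitor p21, was 3.15 higher in KO (adjusted p = 7.75e-11), beside 3.09 for Perp. The study had named many genes of this list, Cdkn1a, Btg2 and Mdm2 among them, as responsive to irradiation from these same arrays. Their counts and p-values on irradiation and for the interaction are therefore descriptive. On irradiation of the KO cells 8 of the 21 were called, beside 0.143% of all probe sets, and 17 passed the adjusted p, beside 6.3%. All of these were higher, and the median log2 difference of the list was 0.87 against 0.32 for Perp. Cdkn1a rose by 1.79 (adjusted p = 3.85e-07), Btg2 by 2.48 (adjusted p = 2.07e-10) and Mdm2 by 1.38 (adjusted p = 1.04e-07). In WT-IR vs WT 0 of the 21 were called (4 at an unadjusted p under 0.05), beside 0.00597% of all probe sets, and the median was -0.02. The adjusted p alone was passed by 2, beside 2.48% of all probe sets. Both were lower: Gtse1 (-0.52, adjusted p = 0.000168) and Phlda3 (-0.21, adjusted p = 0.0222). The interaction was 1.64 for Cdkn1a (adjusted p = 3.73e-05), and 11 of the 21 were called for it, beside 0.149% of all probe sets. That of Perp did not pass. Whether the change of Perp was smaller than that of these genes was not tested.

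**Figure D5:**
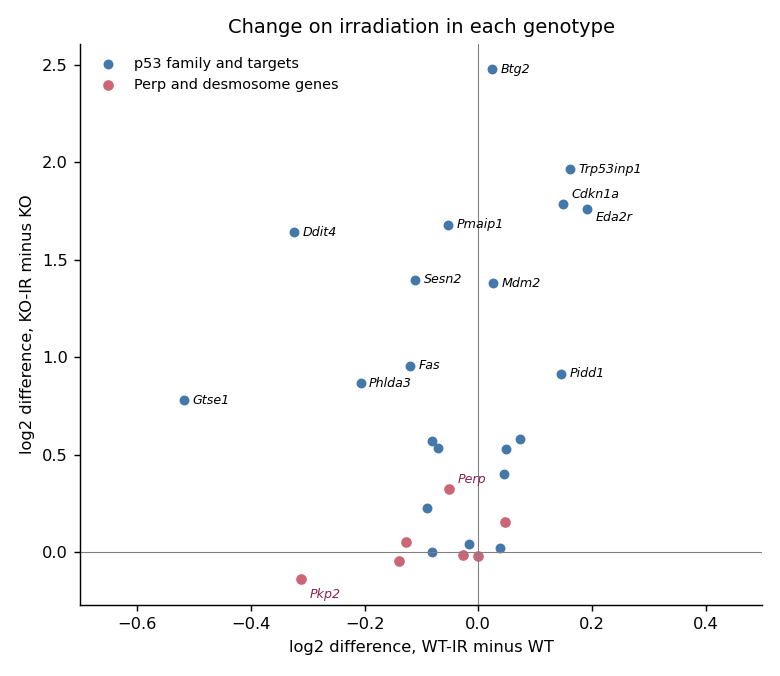
Log2 difference on irradiation in WT cells (x axis, WT-IR minus WT) and in KO cells (y axis, KO-IR minus KO) for the 21 measured p53 family and target genes and the 7 measured members. Each point is a gene. On the y axis 17 of the 21 p53 genes passed the adjusted p, Btg2 lies highest at 2.48, and Perp lies at 0.32.

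The genes whose values followed Perp and Jup most closely over the 12 arrays were named by Pearson's r among 14989 probe sets of 1 symbol. For Perp they were Plau (r = 0.998), Eif4g3 (0.998), F11r (0.997), Tspan2 (0.997) and Armcx1 (0.997), and 178 probe sets exceeded 0.99. For Jup they were Sidt2 (0.999), Tenm3 (0.999), F11r (0.999), Snx19 (0.998) and Lrba (0.998), and 241 exceeded 0.99. F11r was the 1 gene on both lists. The 12 arrays form a WT and a KO cluster, so r mainly follows that split, and the number of probe sets over 0.99 shows that these genes are not singled out by it.

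The members were also set beside their neighbours on the chromosome, the 3 measured genes to each side in the RefSeq order. For each of the 7 members 0 of 6 neighbours were called for KO vs WT, where 4.42% of all probe sets were called. The log2 differences of the neighbours ran from -0.15 to 0.83 for Perp, from -0.38 to 0.91 for Jup, from -0.11 to 0.01 for Pkp1 and from -0.57 to 0.90 for Pkp2. The highest of these, Hap1 (0.91) beside Jup, Fgd4 (0.90) beside Pkp2 and Ifngr1 (0.83) beside Perp, passed the adjusted p but lay under 2-fold. For KO-IR vs WT-IR the log2 differences of Hap1 (1.01) and Fgd4 (1.01) lay just above 2-fold.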

How the data were processed

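RNA of 12 MEF samples was reduced in ribosomal RNA, labelled and hybridized to Affymetrix Mouse Exon 1.0 ST arrays. Normalization by the authors was done in Gene Spring GX, and their deposited log2 values are centred on each probe set's median over the 12 arrays (largest distance from 0, 5e-07). The summarization method is not given in the sources used here. Array medians ran from -0.02 to 0.02, the SD of an array's values from 0.24 to 0.29 and each array's mean correlation within its group from 0.836 to 0.917. The number of arrays limits the precision, and a filter on dim probe sets was not possible.

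All 16755 probe sets were fitted with limma 3.58.1 under R 4.3.3 (eBayes on 4 group means, residual degrees of freedom 8, prior 3.48), with Benjamini-Hochberg adjustment over all probe sets of a contrast. The fit was tested on simulated data. Symbols came from the platform annotation: 14996 probe sets had 1 symbol, 1019 several and 740 none, and 14941 matched the mouse reference GRCm38.p6 by Entrez ID. The members and gene lists were chosen with earlier results of these data known. Named genes were every member and measured desmosome gene, from each other list at most the 5 with the largest change in KO vs WT and any called on irradiation or for the interaction, the 5 probe sets most correlated with Perp and with Jup, and Cdkn1a. Genes outside this rule (Fgd4, Vim, Krt18, Ctnnb1, Cdh1, Nectin1, Rab25, Cldn7, Ifngr1 and Hap1, among others) were chosen after their values were seen. Trp53 and Pak1 itself were not analysed here. Alternatives were the methods' t-test, only the groups compared, a replicate block, quantile normalization, centred arrays, probe sets of 1 symbol, robust eBayes, other fold thresholds and the omission of each array. Python 3.11.15 and matplotlib 3.10.9 drew the figures.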

Additional observations from a re-analysis of the deposited data

Results flagged for a closer look

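No member was flagged, and groups of 3 arrays were not tested for outlying samples. Genes set beside the members changed differently on irradiation in the 2 genotypes by limma's interaction (KO-IR minus KO less WT-IR minus WT). The log2 interaction was 1.64 for Cdkn1a, 1.80 for Trp53inp1, 2.45 for Btg2, 1.73 for Pmaip1, 1.35 for Mdm2, 1.08 for Fas, 1.51 for Sesn2, 1.07 for Phlda3, 1.57 for Eda2r, 1.30 for Gtse1 and 1.96 for Ddit4, all p53 targets with an adjusted p under the threshold. For the fibroblast marker Pdgfra it was -0.40 (adjusted p = 0.0196). That of Perp was 0.38 (adjusted p = 0.255). The p53 targets here had been named by the study as responsive to irradiation from the same arrays, so their values are descriptive.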

How the results depend on the processing

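The counts of called members (4 in each of the genotype comparisons, 0 on irradiation of either genotype and 0 for the interaction) stayed within 1.5 times in 102 of 103 alternative values. The exception was WT-IR vs WT with no fold threshold, where 1 member, Pkp2, passed. Of 651 alternative values for the members 637 were counted as unchanged, 1 lost the threshold, 6 gained it and 0 reversed as a call. In the genotype comparisons unchanged meant a move of less than the spread between arrays. On irradiation and for the interaction it meant only the same side of the threshold. Values that shrank or turned sign without passing were thus counted as unchanged, such as Jup in KO-IR vs KO (0.15, and -0.04 after quantile normalization). In the genotype comparisons 7 values moved by more than the spread between arrays, all under quantile normalization. There KO vs WT became 2.86 for Perp, 2.36 for Jup and 1.58 for Pkp1. KO-IR vs WT-IR became 2.95 for Perp, 2.23 for Jup, 1.55 for Pkp1 and 1.29 for Pkp2. The cause was not tested. Perp in KO-IR vs KO passed with probe sets of 1 symbol alone (adjusted p = 0.0493) and without WT replicate 1 (0.0397), WT replicate 3 (0.0479), KO replicate 3 (0.0343) or KO-IR replicate 2 (0.0465), and over the omission of each array the difference ran from 0.24 to 0.39. Among 5225 values for the other named genes 43 lost the threshold, 34 gained it and 1 reversed, F11r in KO-IR vs KO, at -0.00939 after quantile normalization. The replicate block changed no call of a member (Perp in KO-IR vs KO, adjusted p = 0.0766). Of 18 pairs of same-numbered arrays 3 correlated above 0.1 (-0.14 to 0.21). In 7 of the 18 pairs the array correlated best with the one of its own number. Whether arrays of the same number belong together cannot be told from this. The centring removes the absolute signal, which limits what can be said of flat genes.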
